A study of Mus musculus with 12 samples.

Results

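The genes described here encode the myosins of mouse Sertoli cells: heavy chains, light chains, the kinases that phosphorylate the light chains, and the unconventional myosins. They were chosen by symbol, as every gene whose symbol starts with Myh or Myl and a number or with Mylk, or is Myo with a number and at most 1 letter, with pseudogenes left out. The rule found 54 genes of 50320 symbols, and all 54 were listed in both count tables. They fall into 4 heavy chains of nonmuscle and smooth muscle myosin, 10 other heavy chains, 6 regulatory light chains, 5 essential light chains, 4 light chain kinases and 25 unconventional myosins.

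RNA was sequenced from 12 samples in 4 groups of 3. The sorted control cells were Sertoli cells collected by FACS from testes of mice carrying AmhCre, Ptbp1 flox/wt and mTmG;wt, so the controls carried the Cre transgene, the reporter and 1 floxed Ptbp1 allele. The sorted conditional knockout (cKO) cells differed in being Ptbp1 flox/flox, with AmhCre and mTmG;wt as in the controls. PTBP1 binds pyrimidine-rich RNA and controls splicing, Amh-Cre is active in Sertoli cells, the somatic cells that nurse germ cells in the seminiferous tubule, and mTmG is a membrane reporter whose colour changes after Cre has acted. The cultured groups were primary Sertoli cells of WT genotype, sequenced as input RNA and as RNA recovered by immunoprecipitation (IP) of PTBP1. Neither the age of the animals nor an IP with a control antibody is in the labels. Whether the samples of a group are separate animals or cultures is not stated either, so the p-values speak to the variation of these samples alone, and that may be technical. The cultured libraries carry a pair of numbers in their names, and the first number is 1 for the first and second library of each group and 2 for the third. The labels do not say what the numbers stand for, so the 3 libraries of a cultured group may come from fewer than 3 cultures. The third library of both cultured groups also lay apart along the second principal component, at -10.9 and -14.03 against 2.52 to 8.51 in the other 4.

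Conventional myosins are built from a pair of heavy chains, each with a regulatory and an essential light chain. Phosphorylation of the regulatory light chain by myosin light chain kinase or by the Rock kinases switches nonmuscle and smooth muscle myosin on, and myosin phosphatase switches it off. Unconventional myosins do not form bipolar filaments and mostly carry membranes or other cargo, or tether them to actin. In Sertoli cells actin is bundled at the ectoplasmic specializations, which lie next to the junctions of the blood-testis barrier and face the heads of elongating spermatids, and myosin VIIa has been described at these adhesion sites.

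The sorted libraries held 11980474 to 13750181 counts, the inputs 12894035 to 15315115 and the IP libraries 26725003 to 28796396. Levels are given as CPM, with library sizes scaled by TMM within each table. The targeted gene Ptbp1 was at 241 to 251 CPM in the controls and at 7.64 to 7.99 CPM in the cKO libraries. Of 20 Sertoli cell markers tested in the sorted cells 12 fell in the cKO, where 21.4% of all genes tested fell, and 0 rose, and their summed level was 23892 to 24644 CPM in the controls and 17935 to 19186 CPM in the cKO. Germ cell markers moved the other way, with 6 of 13 tested higher, where 17.6% of all genes were, and summed levels of 213 to 339 CPM against 415 to 442 CPM. The third library of each sorted group in table order stood apart from the others along the second principal component, at -25.2 and -28.3 against 5.098 to 26.9 in the other 4 libraries. In the third cKO library the summed markers of peritubular myoid cells (86.1 CPM against 45.7 and 44.2), endothelial cells (27.9 CPM against 7.36 and 9.40) and blood (55.1 CPM against 23.9 and 21.6) were the highest of the cKO. The sums of Sertoli and Leydig cell markers were the highest there too. Macrophage markers (85.3 CPM against 147.8 and 149.6) and germ cell markers (415 CPM against 442 and 440) were the lowest there. Nearly all of the macrophage sum was Mrc1, at 82.7 CPM there against 146.0 and 146.1. The germ cell markers did not move together. Ldhc (195 CPM against 225 and 213) and Ddx4 (45.1 CPM against 61.2 and 64.2) were the lowest there. Kit (13.1 CPM against 1.68 and 4.46) and Stra8 (10.1 CPM against 1.19 and 2.74) were the highest. The blood sum was at 33.8 to 62.1 CPM in the controls. Its member Alas2 ran the other way in the cKO, at 8.19 CPM against 20.8 and 16.4. What part these differences between libraries had in the results below was not tested, and in bulk samples fewer cells of a type and less RNA per cell cannot be told apart.

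Of the 54 genes 36 passed the filter on low counts in the sorted cells and 28 in the cultured cells, and 27 passed in both. The 17 genes that passed in neither were Myh2, Myh3, Myh6, Myh7 and Myh15, the light chains Myl2, Myl3 and Myl7, and the unconventional myosins Myo1f, Myo1g, Myo1h, Myo3a, Myo3b, Myo5c, Myo7b, Myo15 and Myo16. Heavy and light chains of cardiac and slow muscle are among them. No untested gene had more than 16 counts in any library of the table in which it was not tested, and Myo3a was listed at 0 in all 12 libraries. In the sorted cells alone 9 further genes passed: Myh1, Myh4, Myh7b, Myh8, Myh13, Myl1, Myl10, Mylk4 and Myo1a. Mylk2, the light chain kinase of skeletal muscle, passed in the cultured cells alone.

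Most myosin reads of the sorted control Sertoli cells fell on unconventional myosins, while the nonmuscle heavy chains had a larger share in the cultured inputs. Unconventional myosins made up 75.1% of the summed CPM of the 54 genes in the controls and 39.2% in the inputs, and the nonmuscle and smooth muscle heavy chains 3.82% and 35.0%. Summed per kilobase of exon instead, which roughly corrects for the short light chain RNAs, the 11 light chains led in both tables. They held 57.8% in the controls and 66.9% in the inputs. On that scale the unconventional myosins held 37.7% and 18.3%, and the nonmuscle and smooth muscle heavy chains 1.61% and 11.6%. The tables differ in culture, genotype and the number of genes listed (49585 sorted and 21823 cultured). By the labels they also differ in library kit and RNA fraction, though the labels do not name the inputs separately. These differences cannot be told apart, and no test was made between the tables. Across the 54 genes the control and input CPM had a Spearman correlation of 0.716, a description over genes that share these libraries.

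Myo7a, the motor of inner ear hair bundles, had the highest CPM of the set in the controls, at 1766, 1427 and 1439.8, and stood at 57.5, 57.9 and 62.2 CPM in the inputs. Myh9, the heavy chain of nonmuscle myosin IIA, lay at 110.3, 103 and 97.7 CPM in the controls and at 1317, 1364 and 1341 CPM in the inputs, where it was the highest of the set. Myo1c, a membrane-binding class I motor, was at 27.1 to 31.3 CPM in the controls and at 545 to 562 CPM in the inputs. In each of these 3 genes the ranges of the sorted and cultured libraries were far apart. Myh11, the smooth muscle heavy chain, was at 1.27 to 2.36 CPM in the controls and at 71.5 to 85.8 CPM in the inputs. Markers of peritubular myoid cells, the smooth-muscle-like cells around the tubule, summed to 62.9 to 68.3 CPM in the controls and to 2242 to 2284 CPM in the inputs, where Acta2 reached 1157 to 1174 CPM and Tagln 791 to 825 CPM. The part of such cells in the Myh11 level was not tested.

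**Figure D1:**
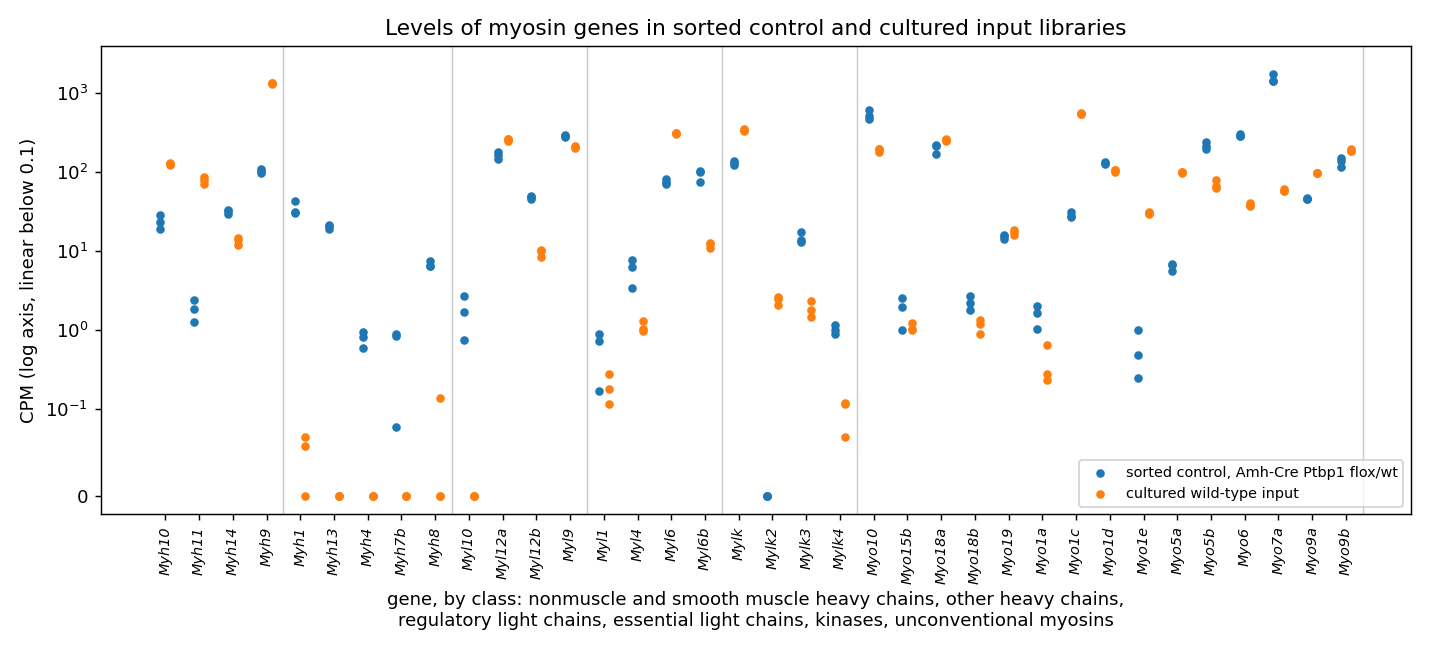
CPM of 36 genes tested in either table (log axis, linear below 0.1), each point a library of the sorted controls (blue) or of the cultured inputs (orange), n = 3 each. Myo7a at 1427 to 1766 CPM is the highest of the controls and Myh9 at 1317 to 1364 CPM the highest of the inputs.

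Levels per kilobase of exon allow a rough comparison of different genes within a table. On that scale the order in the controls began with Myl9 (249 CPM per kb), Myo7a (180.3), Myl6 (115), Myl6b (90.8), Myo10 (52.8) and Myl12a (50.9). Light chains therefore filled 4 of the first 6 places. In the inputs the order was Myl6 (469 CPM per kb), Myl9 (179), Myh9 (104), Myo1c (84.2), Myl12a (81.2) and Mylk (33.9). The exon lengths are given per gene in the authors' table of the sorted cells and were used for both tables. They may differ from the length of the RNA present, so the order is approximate.

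Striated muscle heavy chains were read in the sorted cells too. Myh1, a fast skeletal muscle heavy chain, was at 31.2, 30.2 and 42.8 CPM in the controls and at 27.5, 34.5 and 28.7 CPM in the cKO. Myh13, the heavy chain of extraocular muscle, was at 19.1 to 21.2 CPM in the controls, and Myh8, the perinatal heavy chain, at 6.48 to 7.55 CPM. In the cultured libraries Myh1 had at most 2 counts, and Myh13 was listed at 0 in all 3 inputs, where 3 counts over the group would be 0.0613 CPM. Of 12 striated muscle markers 4 had at most 3 counts in every sorted library, Acta1, Tnni2, Mb and Myog, while the giant sarcomere proteins were read, Ttn at 29.0, 28.1 and 18.9 CPM and Neb at 15.9, 14.03 and 15.1 CPM in the controls. The summed list was at 39.8 to 49.0 CPM in the controls and at 55.8 to 62.1 CPM in the cKO, and of the 4 markers tested Neb alone passed (log2 fold 0.70, adjusted p = 0.00215). The part of these markers in the heavy chain values was not tested. Myh1, Myh4, Myh8 and Myh13 follow one another on chromosome 11 (GRCm38.p6), with Myh1 at 67200102 to 67224577, and Myh1 overlaps the lncRNA gene Myhas. How the authors' counting treated strand and reads that match several of these similar genes is not given in the sources used here, so the split among them is uncertain.

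The promoters of Myl9 and Myl6 are shown because these are the light chains with the highest levels per kilobase in the controls and inputs, and because only the first of them fell in the cKO. Each sequence runs 5′ to 3′ on the gene's strand, from 250 bases before to 50 bases after an annotated start, and is taken from RefSeq (GRCm38.p6). Capitals mark a match to the CArG box, the binding motif of serum response factor, whose letters read the same way on both strands.

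Myl9, chr2:156775214-156775513, plus strand: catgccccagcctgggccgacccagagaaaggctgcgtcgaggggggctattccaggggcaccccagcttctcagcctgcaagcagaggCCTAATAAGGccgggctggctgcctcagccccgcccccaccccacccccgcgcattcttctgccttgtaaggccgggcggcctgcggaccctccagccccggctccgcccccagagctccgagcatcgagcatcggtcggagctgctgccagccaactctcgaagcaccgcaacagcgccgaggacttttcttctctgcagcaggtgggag

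Myl6, second of its annotated starts, chr10:128492960-128493259, minus strand: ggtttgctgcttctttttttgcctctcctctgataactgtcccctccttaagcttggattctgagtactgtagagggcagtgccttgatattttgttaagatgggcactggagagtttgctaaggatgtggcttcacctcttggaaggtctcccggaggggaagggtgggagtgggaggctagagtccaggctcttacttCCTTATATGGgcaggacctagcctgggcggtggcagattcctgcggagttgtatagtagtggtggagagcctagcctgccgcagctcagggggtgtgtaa

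Myl6 has a further annotated start, at the 5′ end of the gene, whose promoter (chr10:128493837-128494136) holds no match and is not shown. The match began 161 bases before the start in Myl9 and 50 bases before it in Myl6. Of the 47 genes of the set with a promoter entry 7 had a match in at least 1 promoter, which is 14.9%, against 488 of 27025 genes, or 1.81%, in the whole table. The other 5 were Myh4, Myh13, Myl3, Myl7 and Myo1e. A match is a description of the letters in these windows and no measure of binding.

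In sorted Sertoli cells without Ptbp1 3 of the 36 tested myosin genes rose, 3 fell and 30 did not pass the test (adjusted p under 0.05). Across all 13405 genes tested 39.0% were called, 17.6% higher and 21.4% lower, so the set's 6 of 36 was a smaller share than the background. The light chains Myl9 and Myl6b and the class I motor Myo1d fell, and the nonmuscle heavy chain Myh10, the cargo motor Myo5a and Myo18b rose. By a log2 fold of 1 or more only Myo18b rose, 1 of 36 against 4.10% of all genes. The median log2 fold of the 36 was -0.01, beside 0.00 for all genes. With scaling by library size alone the median of all genes moved to 0.17, the calls over all genes went from 2359 higher and 2870 lower to 3476 and 1863, and the set had 4 higher and 3 lower.

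Among the regulatory light chains Myl9, the form that smooth muscle and nonmuscle myosin share, stood at 289, 279 and 301 CPM in the controls and at 176, 163 and 177 CPM in the cKO. All 3 cKO libraries lay below all controls, and Myl9 fell by 0.75 on the log2 scale (SE 0.10, adjusted p = 0.000235). The nonmuscle regulatory light chain Myl12a was at 145, 178 and 166 CPM in the controls and at 126, 124 and 189 CPM in the cKO. Its groups overlapped because the third cKO library was the highest of all 6, and the log2 fold of -0.16 (SE 0.16) did not pass (adjusted p = 0.470). Without that library Myl12a fell by 0.39 on the log2 scale (adjusted p = 0.0126). Myl12b, its neighbour on chromosome 17, 3276 bases away, and nearly identical in protein, had 45.6, 49.2 and 50.1 CPM in the controls and 42.7, 50.0 and 64.6 CPM in the cKO (log2 fold 0.12, adjusted p = 0.552). Reads that fit both Myl12 genes could be split between them either way. Myl10 had 0.747 to 2.69 CPM in the controls and 1.502 to 2.73 CPM in the cKO (log2 fold 0.41, adjusted p = 0.539), so the class counted 1 of 4 tested genes lower and 0 higher.

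The essential light chains gave 1 of 4 tested genes lower and 0 higher. Myl6b was at 104, 101 and 75.2 CPM in the controls and at 42.5, 39.2 and 42.0 CPM in the cKO. It fell by 1.18 on the log2 scale (SE 0.13, adjusted p = 0.000121), with no overlap between the groups. Myl6, the main essential light chain of nonmuscle and smooth muscle myosin, lies 270 bases from Myl6b on chromosome 10 (Myl6 at 128490859 to 128493886, Myl6b at 128494157 to 128498685). Its libraries read 81.6, 75.7 and 71.4 CPM in the controls and 69.1, 68.5 and 100.4 CPM in the cKO, overlapping, with a log2 fold of 0.06 (SE 0.15, adjusted p = 0.785). Without the third cKO library that fold was -0.15 (adjusted p = 0.280). Myl4, the embryonic and atrial essential light chain, and Myl1, that of fast muscle, were low and did not pass, at log2 folds of -0.15 (adjusted p = 0.733) and 0.68 (adjusted p = 0.408).

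Of the nonmuscle and smooth muscle heavy chains 1 of 4 rose. Myh10, the heavy chain of nonmuscle myosin IIB, was at 23.5, 19.2 and 28.7 CPM in the controls and at 37.1, 36.9 and 46.0 CPM in the cKO, without overlap. The log2 fold was 0.75 (SE 0.16, adjusted p = 0.00372). Myh9 read 110.3, 103 and 97.7 CPM in the controls and 97.6, 97.8 and 158 CPM in the cKO. The third cKO library alone was above the controls, and the log2 fold of 0.18 (SE 0.17, adjusted p = 0.424) became -0.09 without it (adjusted p = 0.521). Myh14, the heavy chain of nonmuscle myosin IIC, was at 33.2, 32.6 and 29.9 CPM in the controls and at 19.2, 27.1 and 32.5 CPM in the cKO. Here too the third cKO library reached the controls, and the fold of -0.28 (SE 0.18, adjusted p = 0.236) became -0.47 without it (adjusted p = 0.0367). Myh11 was at 1.27, 1.83 and 2.36 CPM in the controls and at 1.82, 2.58 and 2.25 CPM in the cKO, overlapping (log2 fold 0.28, SE 0.40, adjusted p = 0.609).

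None of the 5 tested muscle heavy chains outside that group passed. Their log2 folds were -0.20 for Myh1 (adjusted p = 0.349), -0.08 for Myh13 (0.692), -0.10 for Myh4 (0.912), -0.02 for Myh8 (0.956) and 1.06 for Myh7b (0.234). Myh4 and Myh7b stayed under 2 CPM in every sorted library. The light chain kinases gave no call either, with 0 of 3 tested past the threshold. Mylk, the kinase of smooth muscle and nonmuscle cells, was at 123, 130.4 and 139 CPM in the controls and at 137, 124 and 131 CPM in the cKO, overlapping (log2 fold 0.00, SE 0.10, adjusted p = 0.999). The cardiac kinase Mylk3 was at 0.08 on the log2 scale (adjusted p = 0.840) and Mylk4 at 0.33 (adjusted p = 0.618).

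**Figure D2:**
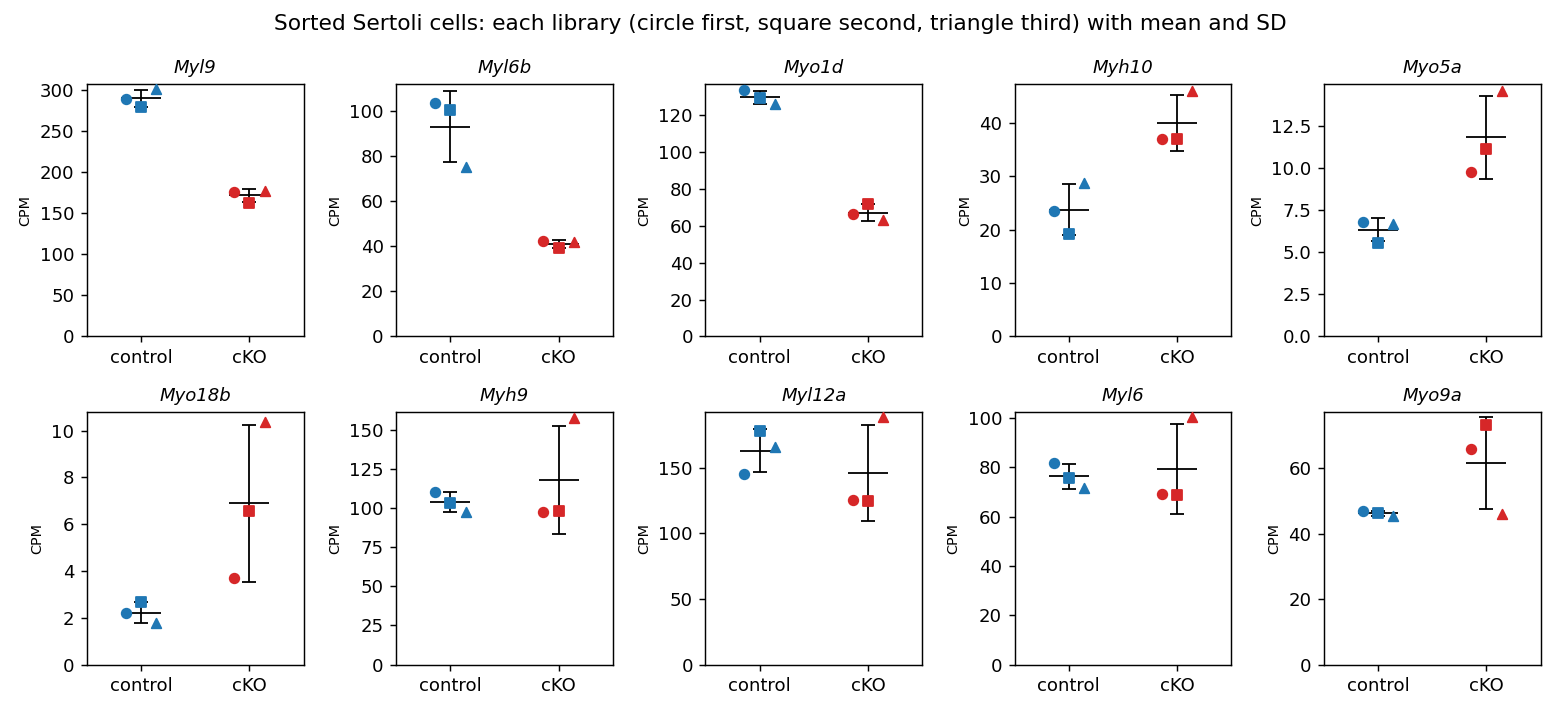
CPM (axes from 0) in each sorted library of 10 genes, circles for the first, squares for the second and triangles for the third library of a group in table order; lines are the mean and bars the SD, n = 3. The cKO libraries of Myl9, Myl6b and Myo1d lie below and those of Myh10, Myo5a and Myo18b above all controls, while the third cKO library of Myh9, at 158 CPM against 97.6 and 97.8, stands alone.

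Of the 16 unconventional myosins tested 2 rose, 1 fell and 13 did not pass. Myo1d, a class I motor that binds membranes, was at 134, 129 and 126 CPM in the controls and at 66.3, 71.9 and 63.2 CPM in the cKO. It fell by 0.95 on the log2 scale (SE 0.10, adjusted p = 9.1e-05), the smallest adjusted p of the set. Myo5a, which carries melanosomes and other vesicles, was at 6.76, 5.56 and 6.67 CPM in the controls and at 9.74, 11.1 and 14.5 CPM in the cKO. That rise of 0.90 on the log2 scale (SE 0.22, adjusted p = 0.00661) left no overlap. Myo18b, known from striated muscle sarcomeres, was at 2.23, 2.66 and 1.79 CPM in the controls and at 3.71, 6.58 and 10.4 CPM in the cKO. Its log2 fold of 1.63 (SE 0.38, adjusted p = 0.00554) came with the largest SE of the 6 called genes and was 1.20 without the third cKO library (adjusted p = 0.0201).

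The 3 unconventional myosins with the highest CPM in the controls, Myo7a, Myo10 and Myo6, did not pass. Myo7a was at 1454, 1328 and 977 CPM in the cKO, overlapping the controls, with a log2 fold of -0.30 (SE 0.15, adjusted p = 0.141). Myo10, the motor of filopodia, was at 608, 519 and 478 CPM in the controls and at 488, 413 and 313 CPM in the cKO (log2 fold -0.40, SE 0.16, adjusted p = 0.0605). Myo10 did pass with DESeq2 (adjusted p = 0.0499), with no filter on low counts (0.0174), without the third control library (0.0439), without the first cKO library (0.0155) and with the third library of each group left out (0.0101). Myo6, which walks towards the pointed end of actin, was at 306, 290.5 and 288 CPM in the controls and at 257, 260.0 and 187 CPM in the cKO. The Myo6 groups did not overlap, but the log2 fold of -0.33 (SE 0.13) missed the threshold (adjusted p = 0.0654), which it passed with no filter on low counts (0.0484) and with the third library of each group left out (0.0354). In all 3 genes the third cKO library was the lowest. Without that library alone the falls were smaller and did not pass. The log2 folds were then -0.15 for Myo7a (adjusted p = 0.322), -0.25 for Myo10 (0.120) and -0.19 for Myo6 (0.112). Myo9a, a class IX motor, was at 46.9, 46.3 and 45.4 CPM in the controls and at 65.8, 73.0 and 45.9 CPM in the cKO. With all libraries its log2 fold was 0.41 (SE 0.15, adjusted p = 0.0527), and without the third cKO library it was 0.58 (adjusted p = 0.00106). Myo9a also passed with the third library of each group left out (0.000406), with library size alone (0.0101), with no filter on low counts (0.0157), with DESeq2 (0.0355) and with DESeq2's size factors (0.0474).

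The remaining 9 tested unconventional myosins also did not pass. Myo5b, a motor of recycling endosomes, had a log2 fold of -0.20 (adjusted p = 0.205), Myo9b, the other class IX motor, of -0.27 (adjusted p = 0.0889), and Myo18a of -0.07 (adjusted p = 0.678). For Myo1c the value was -0.34 (adjusted p = 0.101) with no overlap between the groups, and it was -0.47 without the third cKO library (adjusted p = 0.0251). Myo19, the motor on mitochondria, was at 0.00 (adjusted p = 0.985). Among the low genes were Myo1a at 0.81 (adjusted p = 0.143), Myo1e at 1.36 (adjusted p = 0.108) and Myo15b at -0.56 (adjusted p = 0.367).

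The third cKO library was the highest of the cKO in 19 of the 36 genes and the lowest in 10. Leaving it out gave 4 higher and 6 lower, and leaving out the third library of both groups gave 5 higher and 8 lower. The calls over all genes went up as well, from 2359 higher and 2870 lower with all libraries. They were 2537 and 3123 in the first of these settings and 3023 and 3545 in the second. The 6 calls of the set held with the same sign in both settings. Groups did not overlap in 10 of the 36 genes, against 49.7% of all genes tested. The spans of 21 of the 37 genes tested in either table overlap another RefSeq gene, among them Myo1d, Myo5a and Myo18b, and reads from such overlaps cannot be assigned here.

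In cultured WT Sertoli cells the myosin RNAs divided by kind in the PTBP1 IP: every tested light chain was lower than in input, and several long unconventional myosins were higher. Of 28 genes tested 8 were higher, 16 lower and 4 did not pass, where 87.8% of all 12854 genes tested were called (43.0% higher and 44.8% lower). With a log2 fold of 1 or more as an added condition 3 of 28 were enriched, Myo6, Myo5a and Myo1d, against 20.7% of all genes. Inputs and IP did not overlap in 25 of the 28 genes, against 87.9% of all genes. The median log2 fold was -0.57 for the set and -0.03 for all genes. An IP library is a share of its own total, so these folds are relative to the other RNAs and not amounts bound, and there is no control-antibody IP to set beside them. With scaling by library size alone the median of all genes moved to -0.39, the calls over all genes went from 5527 higher and 5758 lower to 4207 and 7034, and the set had 6 higher, 21 lower and 0 enriched.

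All 6 tested light chains were lower in the IP, where 44.8% of all genes were. In each the groups did not overlap, as in 87.9% of all genes. The share lower differed by exon length. It was 82.8% of all genes under 1500 bases, 60.7% from 1500 to 3000 bases and 41.4% from 3000 to 6000 bases. Myl6 was at 318, 301 and 317 CPM in the inputs and at 23.1, 21.8 and 23.0 CPM in the IP, the lowest fold of the set at -3.79 on the log2 scale (SE 0.05, adjusted p = 2.34e-21). Myl9 was at 206, 215 and 203 CPM in the inputs and at 22.4, 22.3 and 24.3 CPM in the IP, a log2 fold of -3.18 (SE 0.05, adjusted p = 6.16e-20). Myl6b, at 10.9, 12.2 and 12.7 CPM against 1.14, 1.57 and 1.22 CPM, had a log2 fold of -3.18 as well (SE 0.14, adjusted p = 6.6e-14). Myl12b read 8.30, 10.4 and 10.03 CPM in the inputs and 1.58, 1.49 and 1.56 CPM in the IP (log2 fold -2.63, SE 0.14, adjusted p = 1.35e-12). Myl12a, with an exon length of 3201 bases against 1711 for Myl12b, was the least lowered, at 267, 260.2 and 253 CPM in the inputs and 124, 123 and 125 CPM in the IP. Its log2 fold was -1.07 (SE 0.04, adjusted p = 1.23e-14). Myl4, with the longest exon length of the 6 at 4637 bases, was more lowered than Myl12a. It was low throughout, at 1.02, 1.30 and 0.980 CPM in the inputs and 0.276, 0.166 and 0.253 CPM in the IP (log2 fold -2.22, adjusted p = 7.23e-06).

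Of the 4 nonmuscle and smooth muscle heavy chains 1 was higher in the IP, 1 lower and 2 did not pass. Myh9 was at 1317, 1364 and 1341 CPM in the inputs and at 1259, 1293 and 1247 CPM in the IP. Its groups did not overlap, yet the log2 fold of -0.08 (SE 0.04) did not pass (adjusted p = 0.0532). Myh10 was at 127, 130.2 and 123 CPM in the inputs and at 157, 165 and 142 CPM in the IP, higher by 0.29 on the log2 scale (SE 0.05, adjusted p = 5.18e-05), a direction that turned to -0.07 with library size alone. Myh14 was at 12.04, 14.8 and 13.7 CPM in the inputs and at 12.9, 13.7 and 14.2 CPM in the IP, overlapping (log2 fold 0.00, adjusted p = 0.973). Myh11 was lower, at 79.8, 85.8 and 71.5 CPM in the inputs and 47.2, 52.9 and 42.7 CPM in the IP (log2 fold -0.73, SE 0.08, adjusted p = 7.16e-07). Of the 8 peritubular myoid markers 7 were lower in the IP too, where 44.8% of all genes were, with summed levels of 891 to 1035 CPM against 2242 to 2284 CPM, and their part in the Myh11 value was not tested. None of the 10 other heavy chains had enough counts to be tested.

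The light chain kinases differed from each other. Mylk was at 348, 329 and 355 CPM in the inputs and at 587, 562 and 539.7 CPM in the IP, without overlap, a log2 fold of 0.71 (SE 0.04, adjusted p = 1.44e-11). The skeletal muscle kinase Mylk2 was at 2.45, 2.07 and 2.65 CPM in the inputs and at 0.552, 0.869 and 1.22 CPM in the IP (log2 fold -1.44, SE 0.25, adjusted p = 2.65e-05). Mylk3 was at 1.77, 2.31 and 1.44 CPM in the inputs and at 0.552, 0.787 and 0.464 CPM in the IP (log2 fold -1.60, SE 0.28, adjusted p = 2.32e-05). Mylk, which was higher, has 10159 bases of exon. Mylk2 and Mylk3, which were lower and also low in CPM, have 2951 and 4283 bases. The part of length in these folds was not tested.

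**Figure D3:**
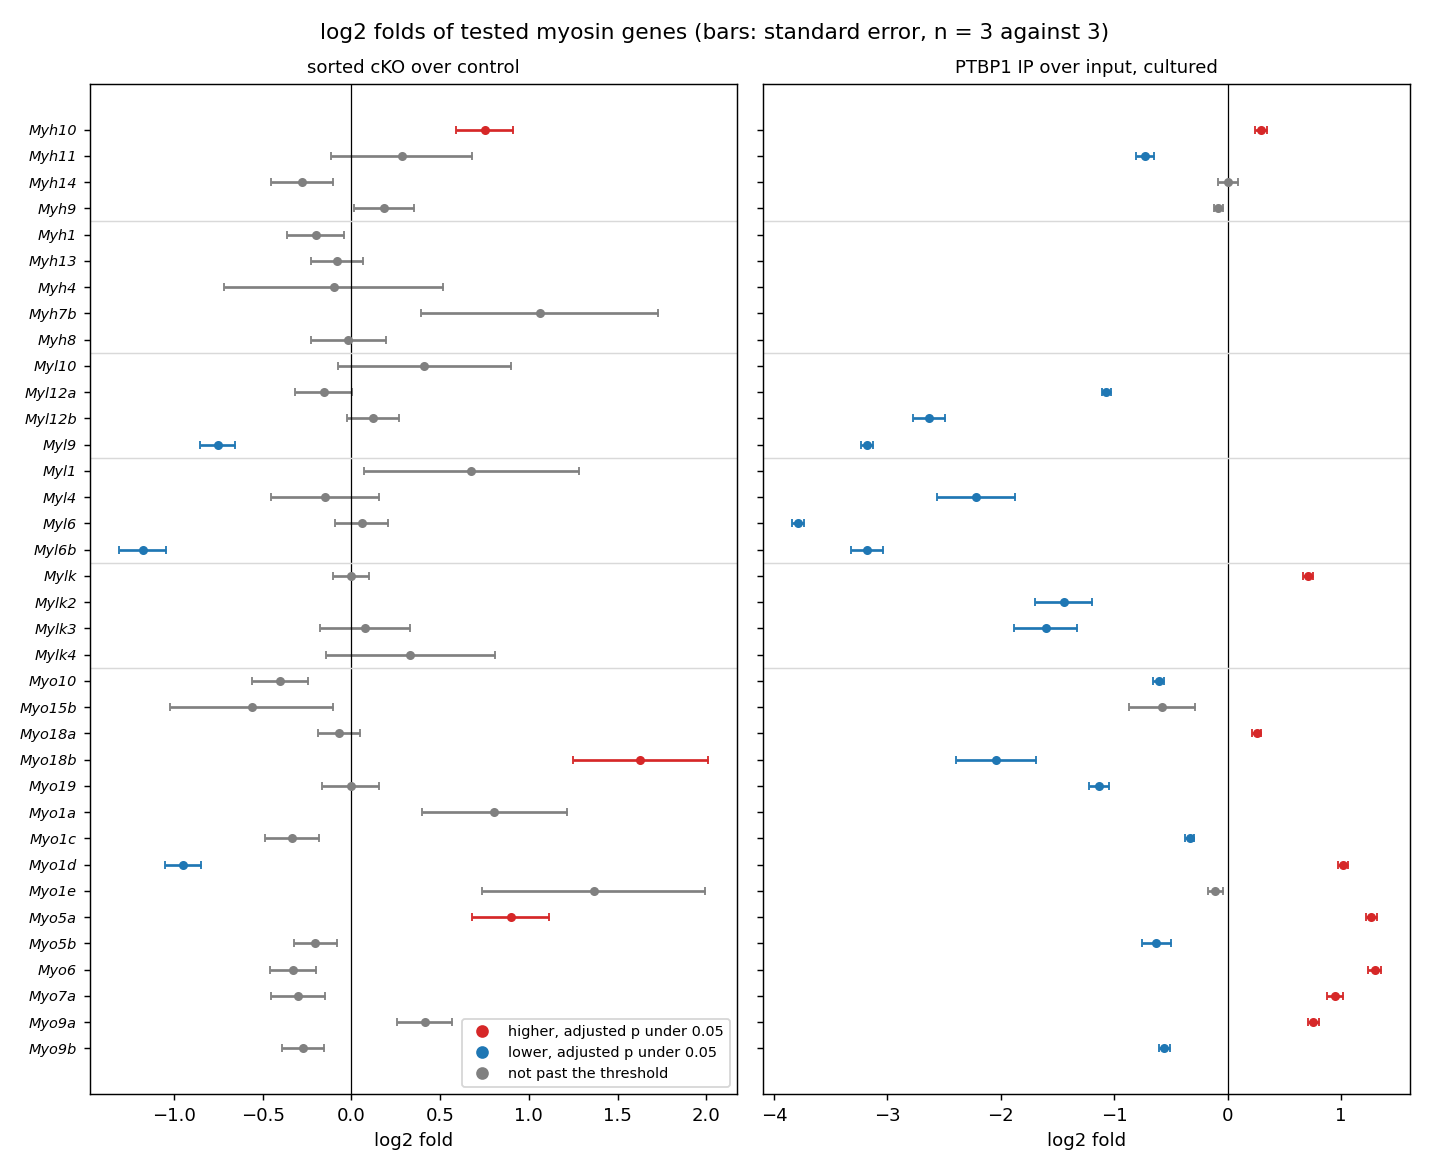
Log2 folds with standard errors of genes tested in the sorted cells (left, cKO over control) and in the cultured cells (right, IP over input), n = 3 against 3, in classes divided by grey lines; red and blue mark adjusted p under 0.05. On the right all 6 light chains lie between -3.79 and -1.07, and the unconventional myosins spread from -2.04 for Myo18b to 1.30 for Myo6.

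Among 15 unconventional myosins tested in the cultured cells 6 were higher in the IP, 7 lower and 2 did not pass. Myo6 was at 38.6, 41.0 and 37.0 CPM in the inputs and at 92.5, 94.6 and 99.5 CPM in the IP, the highest log2 fold of the set at 1.30 (SE 0.06, adjusted p = 4.23e-14). Myo5a was at 100.4, 101 and 98.7 CPM in the inputs and at 241, 252 and 230.0 CPM in the IP (log2 fold 1.27, SE 0.05, adjusted p = 3.29e-15). Myo1d was at 102, 107 and 107 CPM in the inputs and at 214, 213 and 211 CPM in the IP (log2 fold 1.02, SE 0.04, adjusted p = 4.02e-14). In these 3 every IP library was far above every input, while their RNAs encode motors of different classes. Myo7a was at 57.5, 57.9 and 62.2 CPM in the inputs and at 101, 116 and 126 CPM in the IP (log2 fold 0.95, adjusted p = 2.8e-09), just under the added condition. Myo9a was at 97.7, 97.4 and 98.4 CPM in the inputs and at 171, 167 and 158 CPM in the IP (log2 fold 0.76, adjusted p = 8.8e-12). Myo18a, a motor protein tied to the Golgi, was at 255, 267 and 246 CPM in the inputs and at 300.3, 312 and 304 CPM in the IP. Its log2 fold of 0.26 (adjusted p = 2.06e-05) turned to -0.11 with library size alone (adjusted p = 0.0216).

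The lower unconventional myosins were of mixed level. Myo1c, the most abundant of them, was at 562, 556 and 545 CPM in the inputs and at 444, 437 and 437 CPM in the IP (log2 fold -0.33, adjusted p = 1.61e-07). Myo10 was at 194, 199 and 179 CPM against 128, 126 and 122 CPM (log2 fold -0.61, adjusted p = 5.3e-10). Myo9b was at 187, 198 and 188 CPM against 122, 132 and 135 CPM (log2 fold -0.56, adjusted p = 2.11e-09). In each of the 7 the groups did not overlap. Myo5b was at 63.8, 66.0 and 80.5 CPM in the inputs and at 42.1, 40.6 and 53.5 CPM in the IP (log2 fold -0.63, adjusted p = 0.00163), with the third library the highest in both groups. Myo19 was at 17.4, 18.3 and 16.1 CPM against 8.16, 7.62 and 7.80 CPM (log2 fold -1.14, adjusted p = 4.18e-10). Myo18b, at 0.885, 1.18 and 1.33 CPM against 0.197, 0.414 and 0.211 CPM, was the lowest of the class in fold (log2 fold -2.04, adjusted p = 2.53e-05). Myo1e (log2 fold -0.11, adjusted p = 0.132) and Myo15b (-0.58, adjusted p = 0.0715) did not pass.

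The IP folds moved with the exon length of the gene, in the set as in the whole table. Over the 28 genes the Spearman correlation of exon length with the IP over input log2 fold was 0.667, and over 12511 genes with a length it was 0.427, both descriptions over genes of the same 6 libraries. Genes under 1500 bases had a median log2 fold of -2.44, those of 1500 to 3000 bases -0.69, and those of 10000 bases or more 0.69. The 3 myosin genes under 1500 bases, Myl6, Myl6b and Myl9, had a median of -3.18, and the 9 of 10000 bases or more a median of 0.26. In all 5 length classes the myosin median was below that of all genes of like length. Within the class of 6000 to 10000 bases, where all genes had a median of 0.49, the 10 myosins ran from -1.14 for Myo19 to 1.30 for Myo6. Exon length and the cKO log2 folds had correlations of 0.14 over the 36 genes of the set and 0.06 over all 13405. The part of length in the IP values was not tested.

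**Figure D4:**
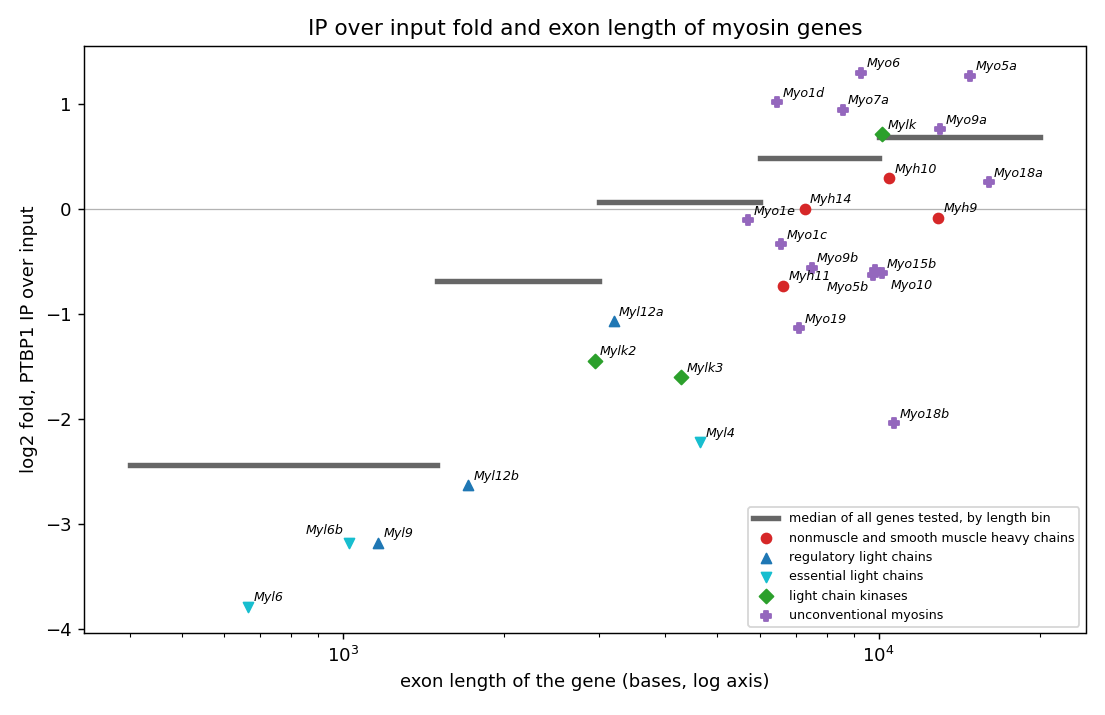
Log2 fold of IP over input against exon length in bases (log axis) of 27 tested genes, with grey bars for the median of all genes tested in each length class. The light chains Myl6, at -3.79, Myl6b and Myl9 lie at the short end, and Myl12b, Myl12a and Myl4 are longer, at 1711, 3201 and 4637 bases. Myl4 at -2.22 and Myo18b at -2.04 are far below the bars of genes of like length, at 0.07 and 0.69.

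The 6 genes that changed in the cKO were all called in the IP as well, where 87.8% of all genes were. Myh10 and Myo5a were higher in both comparisons, and Myl9 and Myl6b lower in both. Myo1d fell in the cKO and was higher in the IP, and Myo18b did the reverse. Across the 27 genes tested in both the Spearman correlation of the cKO and IP log2 folds was 0.07, beside -0.07 over 11142 genes.

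Proteins that act on myosins were read from 3 lists: 37 genes for kinases, phosphatase subunits and GTPase regulators of the light chains, 21 for filament partners and chaperones, and 22 for cargo adaptors of unconventional myosins. In the sorted cells 71 of these 80 genes were tested, of which 12 rose and 23 fell in the cKO (49.3% called, against 39.0% of all genes), with a median log2 fold of -0.17 beside 0.00 for all genes. With library size alone the counts were 16 and 16.

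Among the kinases, phosphatase subunits and GTPase regulators 8 of 35 tested rose and 10 fell (51.4% called, against 39.0% of all genes). Rock2, a kinase that phosphorylates the regulatory light chain and inhibits myosin phosphatase, was at 48.5, 51.4 and 38.9 CPM in the controls and at 83.8, 98.1 and 94.3 CPM in the cKO (log2 fold 0.99, adjusted p = 0.000208). Its paralog Rock1 was at 53.3, 50.1 and 39.0 CPM against 82.2, 99.2 and 90.3 CPM (log2 fold 0.93, adjusted p = 0.000362). In both genes the groups did not overlap. Rhoa, the GTPase that activates these kinases, was at 238, 244 and 261 CPM in the controls and at 164, 152 and 168 CPM in the cKO, a log2 fold of -0.62 (adjusted p = 0.000692). Arhgap29, a GTPase-activating protein, rose by 0.89 on the log2 scale (adjusted p = 0.00036) and Cdc42bpa, a Cdc42-dependent kinase of the same substrates, by 0.62 (adjusted p = 0.00118). Dapk3, another kinase of the regulatory light chain, fell by 0.94 on the log2 scale (adjusted p = 0.00056).

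Of 18 filament partners and chaperones tested 2 rose and 7 fell (50.0% called, against 39.0% of all genes). Synpo, the actin-bundling protein synaptopodin, was at 103, 93.3 and 71.2 CPM in the controls and at 44.4, 48.2 and 42.5 CPM in the cKO (log2 fold -0.99, adjusted p = 0.000327). Hsp90aa1, a chaperone that with Unc45 folds myosin heads among many clients, was at 213, 213 and 254 CPM against 411, 399.9 and 573 CPM (log2 fold 1.03, adjusted p = 0.00036). Llgl1, a polarity protein that binds nonmuscle myosin, fell by 0.67 on the log2 scale (adjusted p = 0.000668). Smtn (smoothelin), its relative Smtnl2 and Shroom2, which recruits the Rock kinases to junctions, were the other 3 with the smallest p, and all 3 were lower in the cKO, with adjusted p = 0.000541, 0.00389 and 0.00465.

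Of 18 cargo adaptors tested 2 rose and 6 fell (44.4% called, near the 39.0% of all genes). Espn, the actin bundler of ectoplasmic specializations and hair cell stereocilia, was at 3290.0, 3178 and 2561 CPM in the controls and at 1802, 1417 and 1237 CPM in the cKO, without overlap (log2 fold -1.02, adjusted p = 0.000458). Adaptors of myosin VI lay on both sides: Gipc1, Tom1 and Tom1l2 fell by 0.95, 0.67 and 0.73 on the log2 scale, with adjusted p = 0.000408, 0.00228 and 0.000673, and Tax1bp1 rose by 0.84 (adjusted p = 0.000308). Rab11fip2, which links myosin Vb to recycling endosomes, rose by 0.66 on the log2 scale (adjusted p = 0.00148).

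In the PTBP1 IP 73 of the 80 genes were tested, of which 29 were higher and 37 lower than in input, and 12 were enriched by a log2 fold of 1 or more (6 with library size alone). The share called, 90.4%, was near the 87.8% of all genes, and the share enriched, 16.4%, was below the 20.7% of all genes. Their median log2 fold was -0.24, beside -0.03 for all genes. Among the kinases, phosphatase subunits and GTPase regulators 15 of 36 were higher and 18 lower (91.7% called). Ppp1r12b, a targeting subunit of myosin phosphatase, was at 184, 187 and 168 CPM in the inputs and at 681, 708 and 667 CPM in the IP (log2 fold 1.93, adjusted p = 9.91e-18). Pak3, a Rac-dependent kinase, was higher by 1.83 on the log2 scale (adjusted p = 4.41e-18) and Arhgef12, a guanine nucleotide exchange factor, by 1.65 (adjusted p = 8.01e-18). Ppp1r14b, a phosphatase inhibitor, was at 72.3, 73.4 and 61.7 CPM in the inputs and at 7.17, 6.58 and 7.72 CPM in the IP (log2 fold -3.27, adjusted p = 2.17e-17). The value for Dapk3 was -3.13 (adjusted p = 4.23e-17).

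Filament partners and chaperones gave 7 higher and 10 lower of 20 tested in the IP (85.0% called, near the 87.8% of all genes). Hsp90ab1 and Hsp90aa1 had log2 folds of -1.51 (adjusted p = 2.16e-17) and -1.64 (adjusted p = 1.1e-16), and Smyd2, a methyltransferase that acts with Hsp90, of -1.88 (adjusted p = 1.76e-15). The calponins, which bind actin and restrain myosin, lay on both sides, with Cnn1 at -2.51 (adjusted p = 1.15e-15) and Cnn2 at 1.06 (adjusted p = 6.82e-15). Shroom4 was higher by 1.27 on the log2 scale (adjusted p = 8.43e-16). Cargo adaptors gave 7 higher and 9 lower of 17 (94.1% called, against the same 87.8%). Dab2, an endocytic adaptor of myosin VI, was at 53.4, 48.6 and 53.3 CPM in the inputs and at 194, 192 and 193 CPM in the IP (log2 fold 1.90, adjusted p = 2.57e-17), and Tom1l2 had a log2 fold of 1.85 (adjusted p = 2.39e-17). Dynll1, a light chain that myosin Va shares with dynein, was lower at -2.16 (adjusted p = 4.53e-18), as were Rab8a at -1.83 (adjusted p = 1.46e-15), Gipc1 at -1.74 (adjusted p = 1.81e-15) and Espn at -1.41 (adjusted p = 1.2e-13).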

How the data were processed

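Whole-number counts per gene were deposited by the authors in 2 tables, the sorted libraries with exon read counts and exon lengths and the cultured libraries with gene counts. Per the submitters' processing notes bcl2fastq 2.20, cutadapt, Bowtie2 2.3.5.1, STAR, HTSeq and DESeq2 were used and the genome build was mm10; how reads that match several genes and strand were handled is not given in the sources used here. Per the labels' protocols the sorted libraries came from poly(A) RNA of 100 ng of total RNA with the NEBNext Ultra Directional kit, and the PTBP1 immunoprecipitation libraries from total RNA with the Ultra II Directional kit. The inputs are not named separately there. A further 84 per-library value columns of the sorted table were not used. The sorted columns name a group and no replicate, so libraries are numbered by table order.

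Each table was fitted on its own 6 libraries with edgeR 4.0.16 (R 4.3.3): filterByExpr, TMM scaling and the robust quasi-likelihood test, 2-sided, adjusted by Benjamini-Hochberg across every tested gene of the table, threshold 0.05. The SE is the absolute log2 fold divided by the square root of F. No pair of libraries agreed within sampling noise. The fit was tested on simulated counts. The genes with values in every library are Myl9, Myh9, Myh10, Myh11, Myh14, Myl6, Myl12a, Myl12b, Mylk and each gene past the threshold, and up to 6 genes with the smallest p are named per list and comparison. Some genes counted in the totals are not reported here by name or drawn. Genes, lists and tests were chosen with earlier results of these data known. Alternatives were DESeq2 1.42.0, other scalings, no count filter, leaving out libraries and a replicate block. Coordinates and promoters are from RefSeq (GRCm38.p6). The limit given for a gene listed at 0 covers counting error only. The SE and SD include variation between the libraries of a group.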

Additional observations from a re-analysis of the deposited data

How the results depend on the processing

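The 6 genes called in the cKO kept their direction and their side of the threshold under every alternative run. The count of lower genes was 3, and it was 5 with no filter on low counts and 3 to 6 when 1 library was left out. Leaving out the third library of each sorted group gave 5 higher and 8 lower. Over all genes the calls then went from 2359 higher and 2870 lower to 3023 and 3545. In that setting the log2 fold of Myh9 was -0.14, of Myl12b -0.042, of Myl6 -0.20 and of Mylk 0.035. Genes short of the threshold changed sign near 0. With library size alone the log2 fold was 0.017 for Myl12a, 0.020 for Myl4, 0.17 for Mylk, 0.10 for Myo18a and 0.17 for Myo19. With DESeq2's size factors and with DESeq2 itself Mylk was at 0.021 and 0.021 and Myo19 at 0.016 and 0.016. With each library left out in turn the ranges were -0.087 to 0.30 for Myh9, -0.061 to 0.25 for Myl12b, -0.41 to 0.13 for Myl4, -0.15 to 0.15 for Myl6, -0.040 to 0.034 for Mylk, -0.27 to 0.32 for Mylk3, -0.20 to 0.013 for Myo18a and -0.12 to 0.060 for Myo19. No paired analysis was possible because the sorted columns carry no replicate number.

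In the IP, library size alone moved Myh10 to -0.074, Myh14 to -0.36 and Myo18a to -0.11, left 0 genes of the set enriched and 6 of the actomyosin lists; with that scaling the median of all genes was -0.39. With 1 library left out the enriched count ran from 2 to 4 and Myh14 from -0.066 to 0.075. Input and IP libraries share numbers in their names, whose meaning the labels do not give. Same-numbered libraries deviated together with correlations of 0.116, 0.040 and 0.175, and all but the second IP library, which was nearest to the first input (0.061), correlated best with their own number, a hint from the data and not the design. With the number as a replicate block 8 genes were higher and 17 lower, Myh9 being added (adjusted p = 0.0272), and no other call of the set changed. Of 286 results for single genes in the IP 279 were unaffected in direction and call, and of 275 in the cKO 228. The causes were not tested. Counts of 16 or fewer per library kept 18 genes of the set from being tested in the sorted cells and 26 in the cultured cells.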
